A study of Arabidopsis thaliana with 42 samples.

Results

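The 9 genes described here encode the methionine chain elongation pathway of glucosinolate synthesis in Arabidopsis thaliana. They were taken by locus from 33770 nuclear genes and genes called new in the deposited tables, and all 9 had a value in every library. Polyadenylated RNA was sequenced from seedlings of 19 natural accessions, the founders of a multiparent mapping population. Each accession (Bur-0, Can-0, Col-0, Ct-1, Edi-0, Hi-0, Kn-0, Ler-0, Mt-0, No-0, Oy-0, Po-0, Rsch-4, Sf-2, Tsu-0, Wil-2, Ws-0, Wu-0 and Zu-0) was sequenced as a pair of biological replicate libraries, 38 in total. Col-0, from which the reference genome was made, also had 4 technical replicate libraries. No treatment is labelled, and all plants were seedlings of about 11 days, grown on soil at 20 C in 16 h of light and 8 h of dark after 5 days at 4 C. The labels do not say how many plants made a library or at which hour they were taken, so a p-value below measures the spread between these libraries.

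Glucosinolates are sulfur-rich defence compounds of the cabbage family, and those of the aliphatic class start from methionine whose side chain has been lengthened. The lengthening is a cycle that resembles leucine synthesis. An aminotransferase removes the amino group in the cytosol, a transporter carries the 2-oxo acid into the plastid, a synthase adds acetyl-CoA, an isomerase and a dehydrogenase finish the round, and an aminotransferase restores the amino group. How many rounds are run sets the side chain length, a trait for which accessions are known to differ.

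The entry steps are encoded by BCAT4 (AT3G19710, chr3:6846969-6849582, minus strand, TAIR10.1), the cytosolic methionine aminotransferase, and BAT5 (AT4G12030, chr4:7210807-7213376), the 2-oxo acid transporter of the plastid envelope. The synthases are MAM1 (AT5G23010, chr5:7703041-7706973), known for short chains, and MAM3 (AT5G23020, chr5:7718118-7721866), which also makes long chains. The isomerase has a large subunit, IPMI LSU1 (AT4G13430, chr4:7803863-7807984, minus strand), shared with leucine synthesis, and small subunits IPMI SSU2 (AT2G43100, chr2:17920647-17921844) and IPMI SSU3 (AT3G58990, chr3:21797058-21798303, minus strand). The dehydrogenase is IPMDH1 (AT5G14200, chr5:4576123-4578402), and BCAT3 (AT3G49680, chr3:18422542-18425758) is the plastid aminotransferase that closes the pathway and also serves branched-chain amino acids. The coordinates come from the RefSeq annotation of TAIR10.1 and cover whole genes, exons and introns together.

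Several of these genes have close copies, so it was asked how far their exons can be told apart. The coding sequences of MAM1 and MAM3 were 83.8% identical, and the longest run of identical bases was 30. It is printed because it is the longest stretch in which a read could not be told between the 2 synthases.
MAM1, chr5:7704429-7704458: attcacatgaaatataagttgaaaaagact
MAM3, chr5:7719081-7719110: attcacatgaaatataagttgaaaaagact
IPMDH1 and IPMDH3 (AT1G31180), a dehydrogenase of leucine synthesis, were 95% identical. The longest run they shared in the joined coding sequences, across exon junctions, was 95 bases. The longest run they shared within 1 exon was 53 bases, on the plus strand for IPMDH1 and the minus strand for IPMDH3.
IPMDH1, chr5:4577570-4577622: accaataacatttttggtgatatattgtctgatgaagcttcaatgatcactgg
IPMDH3, chr1:11143330-11143382: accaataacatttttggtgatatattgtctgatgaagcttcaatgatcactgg
Of the 35-base words in the exons of IPMDH1, 13.3% also occurred in IPMDH3, against 0.212% for BCAT3 (in BCAT5) and 0% for the other 7 genes. Words that cross exon junctions were not counted. The sources used here do not say how reads with several matches were assigned. IPMDH1 values are therefore uncertain by an amount that was not measured. For BCAT3 the shared part is much smaller, and its effect was not measured either. BCAT4 and IPMDH1 overlap a neighbouring gene each (AT3G19700 and AT5G14210), and whether strand was used in counting was not given either. The locus that holds MAM1 and MAM3 is known to differ in gene content among accessions, some of which carry the related MAM2. How reads of such a copy were assigned was not tested.

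Levels are in RPKM as the authors deposited them, a read number corrected for transcript length and for sequencing depth. Estimated depth ran from 1240000 to 4920000 reads per library, and the fewest reads estimated for a member in any library were 77, for BAT5 in Ws-0 replicate 2, which alone gives a counting error of 11.4%. All 9 passed an F test that the 19 accession means are equal (limma on log2(RPKM + 1), Benjamini-Hochberg adjusted over 20669 genes, threshold 0.05), which 55.3% of all tested genes passed. Adjusted p from this limma test ran from 1.75e-14 for BCAT4 to 3.24e-07 for BCAT3. The range of accession means was 1.88 on the log2 scale at the median of the 9 members and 1.00 at the median of all tested genes. The residual SD between the libraries of an accession was 0.15 at the median of the members and 0.23 at the median of all genes. An RPKM value below is the level in 1 library or, with ±, the mean and SD of an accession (n = 2). Differences are in log2(RPKM + 1) and carry their SE.

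**Figure D1:**
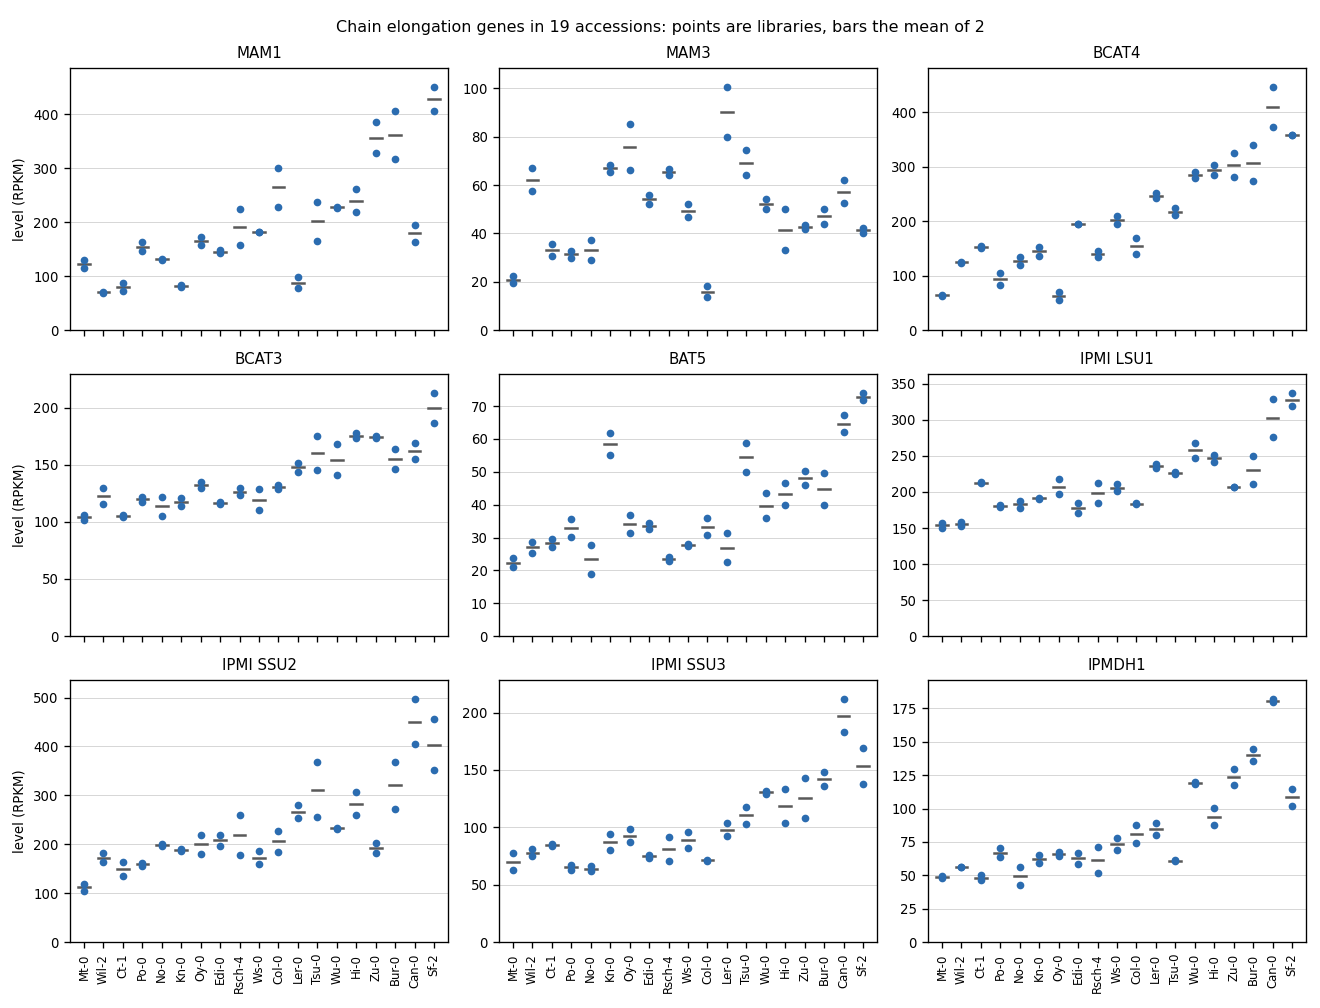
Level in RPKM (linear axes from 0) of each chain elongation gene in the 38 libraries, with accessions ordered from left to right by the summed level of the 9 genes. Points are libraries and bars the mean of 2; most panels climb from Mt-0 to Sf-2, while the MAM3 panel peaks in Ler-0 at 90.2 RPKM and is lowest in Col-0 at 15.8.

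BCAT4, which opens the pathway, had the widest range of the 9 on the log2 scale, 2.70 between accession means. Its level over 38 libraries was lowest at 54.6 RPKM, 194 at the median and highest at 446. Can-0 stood at 373 and 446 RPKM and Sf-2 at 357 and 358, while Oy-0 stood at 70.4 and 54.6 and Mt-0 at 62 and 65.1. The Can-0 libraries did not overlap those of Sf-2, the next in order, whereas the Mt-0 and Oy-0 libraries overlapped each other. Mean levels in Can-0 were 6.55 times those in Oy-0. Of 18 neighbouring pairs in the order of accessions, 10 did not overlap. The order was set by the same values and the count was not made for all genes, so it only describes BCAT4. Against the mean of the other 18 accessions, BCAT4 was higher by 1.25 ± 0.09 in Can-0 (limma adjusted p = 2.56e-10) and lower by a log2 difference of -1.60 ± 0.09 in Oy-0 (adjusted p = 5.62e-12).

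BAT5, the transporter, had the lowest median level of the 9. Its levels over the 38 libraries ran from 19 RPKM to 74.0, with a median of 35. The highest accessions were Sf-2, at 74.0 and 71.8 RPKM, Can-0, at 62.2 and 67.2, and Kn-0, at 61.9 and 55.0. The lowest was Mt-0, at 21.0 and 23.7 RPKM, which overlapped No-0, at 27.7 and 19. Kn-0 held this high BAT5 level beside a low summed level of the 9 genes, 998 ± 8.37 RPKM. There BAT5 was 0.70 ± 0.12 above the mean of the others (limma adjusted p = 0.000193) and MAM3 0.56 ± 0.12 above it (adjusted p = 0.00339), while MAM1, BCAT4 and IPMDH1 were below it, where 5.37% of all tested genes were higher and 5.57% lower. The Kn-0 calls of MAM3, BCAT4 and IPMDH1 were lost when either Kn-0 library was left out.

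MAM1 and MAM3 lie side by side on chromosome 5 and did not vary together. MAM1 levels ran from 68.8 RPKM to 449.9, with a median of 164. Sf-2, at 405 and 449.9 RPKM, was highest, its lower library level with the upper one of Bur-0, at 316 and 405. Bur-0 and Zu-0, at 328 and 384, followed without a gap between them. At the low end were Ler-0, at 98.3 and 77.7 RPKM, Kn-0, at 83.0 and 79.9, Ct-1, at 87.3 and 71.6, and Wil-2, at 70.8 and 68.8. The 4 accessions at the low end did not overlap Mt-0, the next above them, at 115 and 130.0. The accession means of MAM1 spanned 6.12-fold, and 5 of 18 neighbouring pairs did not overlap, a count that was not made for all genes.

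MAM3 levels ran from 13.5 RPKM to 101, with a median of 50.3. Ler-0, with 101 and 79.7 RPKM, was highest. Col-0, with 18.2 and 13.5 RPKM, was lowest, and Mt-0 came next with 19.3 and 22.2. The Col-0 and Mt-0 libraries did not overlap, but the difference between the accessions, 0.38 ± 0.17, did not pass the test (limma adjusted p = 0.224). The other 17 accessions were all higher than Col-0 in MAM3, from 0.96 ± 0.17 in Po-0 (adjusted p = 0.000686) to 2.44 ± 0.17 in Ler-0 (adjusted p = 1.61e-10). These 17 calls held under every alternative, including those that leave out 1 library. Among the alternatives, a block for the sequencing lane could adjust only contrasts of accessions sequenced on the lanes of Col-0.

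The ratio of MAM1 to MAM3 level differed widely between accessions. It was 0.977 and 0.975 in the libraries of Ler-0, 1.23 and 1.03 in Wil-2, and 1.26 and 1.17 in Kn-0. At the other end it was 10.05 and 10.6 in Sf-2 and 12.5 and 22.3 in Col-0. Levels are per length of the exon model, so the ratio compares transcript levels as far as both gene models suit each accession. Against Col-0, MAM1 was lower in 10 accessions, of which Wil-2 differed most, by -1.89 ± 0.17 (limma adjusted p = 2.82e-08), and higher in Sf-2, by 0.71 ± 0.17 (adjusted p = 0.0082). Of these 11 calls, 5 were lost when some library was left out. Without Col-0 replicate 2, which held the higher MAM1 level of the 2 Col-0 libraries, the calls of Can-0, Edi-0, Oy-0 and Po-0 were lost, and without Col-0 replicate 1 that of Sf-2 was lost. The Can-0, Oy-0 and Po-0 calls were also lost with the sequencing lane as a block, and that of Can-0 in 21 of 38 fits without 1 library. Oy-0 and Po-0 were not sequenced on the lanes of Col-0, so the block could not adjust their contrasts for the lane. Leaving out a library of their own accession also ended the calls of Oy-0 (either), Po-0 (replicate 2) and Sf-2 (replicate 2).

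**Figure D2:**
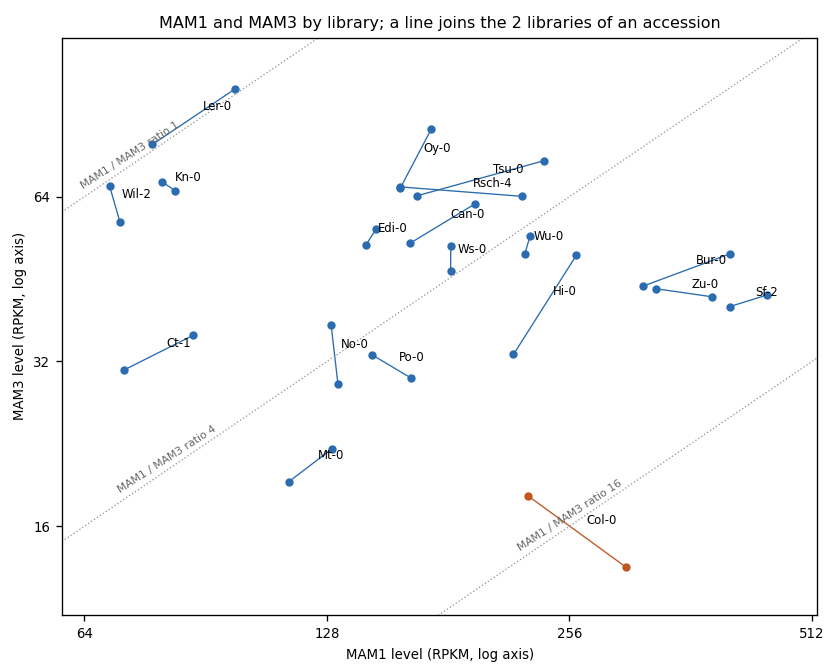
MAM1 level against MAM3 level in each library (RPKM, both axes log), with a line joining the 2 libraries of an accession and dotted lines of equal ratio. Ler-0, Kn-0 and Wil-2 lie near a ratio of 1, and Col-0 (orange) lies apart at the lower right with ratios of 12.5 and 22.3.

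The isomerase subunits were lowest or near lowest in Mt-0 and highest in Can-0 or Sf-2. IPMI LSU1, the large subunit, ran from 151 RPKM to 337 over the libraries, with a median of 209. Its accession means spanned 2.13-fold, from Mt-0, at 158 and 151 RPKM, to Sf-2, at 319 and 337. Mt-0 overlapped Wil-2, at 159 and 153, and Sf-2 overlapped Can-0, at 276 and 329.5. IPMI SSU2 ran from 105 RPKM to 497, with a median of 202. Can-0, at 405 and 497 RPKM, and Sf-2, at 351 and 455, were highest and overlapped. Mt-0, at 105 and 119.8 RPKM, lay below all other libraries.

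IPMI SSU3 ran from 61.8 RPKM to 212, with a median of 92.1. Can-0, at 183 and 212 RPKM, stood above Sf-2, at 138 and 169, without overlap. The low end was shared by No-0, Po-0, Mt-0, Col-0 and Edi-0, whose libraries lay between 61.8 and 77.3 RPKM. Replicate 2 of Rsch-4 (70.3 RPKM) and of Wil-2 (74.8) lay in that span too, so these accessions were not set apart. The 2 small subunits kept a narrower ratio than the synthases did. IPMI SSU2 was more abundant per length than IPMI SSU3 in all 38 libraries, by 1.42-fold in Zu-0 replicate 2 to 3.25-fold in No-0 replicate 2.

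IPMDH1, the dehydrogenase, ran from 42.5 RPKM to 182, with a median of 69.9. Can-0, at 179.7 and 182 RPKM, was above Bur-0, at 144 and 136, and both were above all others. Ct-1, at 50.4 and 46.2 RPKM, Mt-0, at 49.3 and 48.4, and No-0, at 55.9 and 42.5, were lowest and overlapped. Against the mean of the other 18, IPMDH1 was higher by 1.28 ± 0.09 in Can-0 (limma adjusted p = 3.18e-10). Its near copy IPMDH3 ranged only from 27.1 RPKM in Kn-0 to 38.6 in Hi-0 and did not pass the F test (adjusted p = 0.174).

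BCAT3 varied least of the 9. Its levels ran from 102 RPKM to 213, with a median of 129.7, and its accession means spanned 1.92-fold. Sf-2, at 187 and 213 RPKM, lay above all others. Below it, Hi-0, at 177 and 174, and Zu-0, at 175 and 173, overlapped each other. Its SD between accessions was 0.27 on the log2 scale, the same as the median of all tested genes to 2 decimals. The ratio of BCAT4 to BCAT3, the aminotransferases at either end of the pathway, ran from 0.523 and 0.422 in Oy-0 to 2.41 and 2.64 in Can-0.

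Read by accession, Mt-0 and Sf-2 formed the ends. The summed level of the 9 genes was 718 ± 29.0 RPKM in Mt-0 and 2092 ± 168 in Sf-2. In Mt-0 all 9 genes were lower than the mean of the other 18 accessions, where 6.15% of all tested genes were lower. The differences in Mt-0 ran from -0.41 ± 0.07 for BCAT3 (limma adjusted p = 0.000428) to -1.56 ± 0.09 for BCAT4 (adjusted p = 8.84e-12). The MAM1 call in Mt-0 was lost without either of its libraries and that of IPMI SSU3 without replicate 1.

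In Sf-2, 8 genes were higher than the mean of the others, against 5.03% of all tested genes. The exception was MAM3, with a difference of -0.16 ± 0.12 (limma adjusted p = 0.48). The largest was MAM1, at 1.40 ± 0.13 (adjusted p = 1.68e-08), and the IPMDH1 call was lost without Sf-2 replicate 2. In Can-0, 7 genes were higher, where 7.07% of all tested genes were. There MAM1, at 0.08 ± 0.13 (adjusted p = 0.765), and MAM3, at 0.32 ± 0.12 (adjusted p = 0.0944), did not pass, and the call of BCAT3, the smallest at 0.26 ± 0.07, was lost without either Can-0 library. So the accessions with the highest summed levels differed in MAM1, which was 427 ± 31.8 RPKM in Sf-2 and 179 ± 23.1 in Can-0.

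Some accessions held single genes against the trend of the others. In Oy-0, MAM3 was higher by 0.74 ± 0.12 (limma adjusted p = 0.000262; 0.0718 without Oy-0 replicate 1) while BCAT4 was lower, and the other 7 genes did not pass. In Oy-0, 5.64% of all tested genes were higher and 3.97% lower. In Ler-0, MAM3 was higher by 1.00 ± 0.12 (adjusted p = 3.54e-06) and MAM1 was lower (adjusted p = 4.57e-06), with BCAT4 also higher and BAT5 also lower. The BAT5 call was lost without Ler-0 replicate 2 (adjusted p = 0.471). In Ler-0, 7.42% of all tested genes were higher and 6.74% lower. In Tsu-0, 5 genes were higher and IPMDH1 was lower, at -0.36 ± 0.09 (adjusted p = 0.0131), where 6.20% of all tested genes were higher and 5.69% lower. Without Tsu-0 replicate 2 none of these 6 calls passed, and without replicate 1 those of BCAT4 and IPMDH1 did not. Over all 19 accessions, 48 of 171 differences of a member from the mean of the others were higher calls and 50 were lower calls. Over all genes, 5.71% of such differences were higher calls and 5.52% lower calls. Of the 98 calls of members, 49 were lost when some library was left out.

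**Figure D3:**
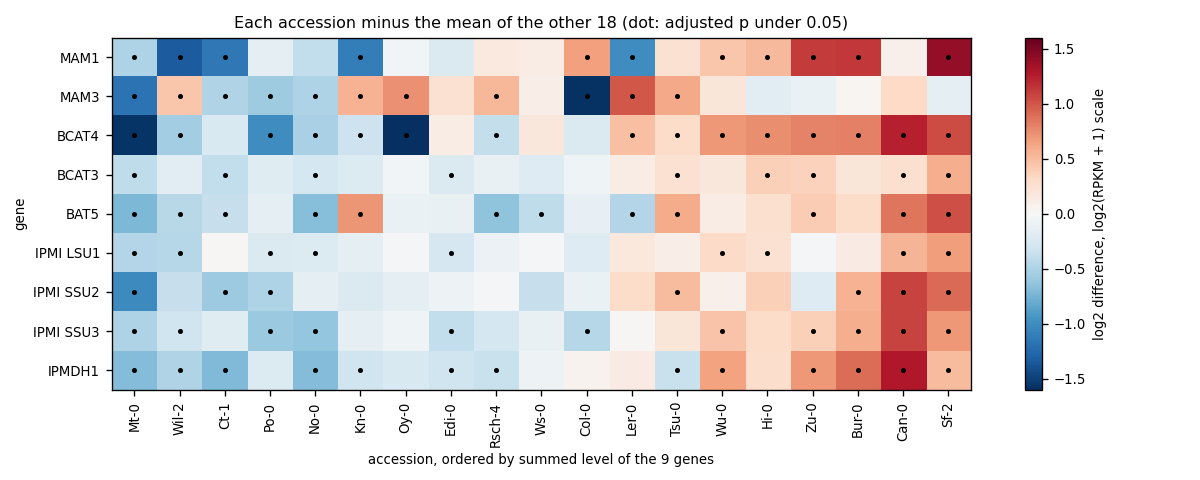
Log2 difference of each accession from the mean of the other 18 (colour, log2(RPKM + 1) scale) for the 9 genes, with a dot where the adjusted p was under 0.05. Mt-0 at the left is lower in all 9 rows, and Sf-2 at the right is higher in 8 rows, all but MAM3.

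Against Col-0 alone, the members gave 58 higher and 21 lower calls among 162 contrasts, where 4.60% of all gene contrasts were higher calls and 4.37% lower. The contrasts share the 2 Col-0 libraries. MAM3 accounted for 17 of the 58 and MAM1 for 10 of the 21. BCAT4 was higher in 9 accessions and lower in Mt-0, Oy-0 and Po-0. IPMDH1 was higher in 5 and lower in 6, and the lower calls of Rsch-4 and Tsu-0 (limma adjusted p = 0.0484 and 0.0493) were lost in 30 and 32 of 38 fits that left out 1 library. BCAT3 was called higher in Hi-0, Sf-2 and Zu-0. The Hi-0 call was lost without any 1 library of Hi-0 or Col-0, and the Zu-0 call without replicate 1 of Zu-0 or of Col-0. The Zu-0 call was also lost with the lane as a block, which could not adjust it, as Zu-0 and Col-0 shared no lane. Sf-2 was the accession in which all 9 genes were higher than in Col-0, where 5.50% of all tested genes were. The MAM1 and IPMDH1 calls of Sf-2 were each lost without certain single libraries of Col-0 or Sf-2. Without Col-0 replicate 1 the higher calls fell to 45 in number, and without Col-0 replicate 2 the lower calls came to 14.

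Labels place the libraries on 5 pairs of sequencing lanes with 3 or 4 accessions each, so accession and lane pair are partly confounded. Ws-0, Wu-0 and Zu-0 were sequenced in run 39, and all other accessions in run 38. Zu-0 was not split over its pair, because its replicates shared lane 1. The spread between the Zu-0 replicates therefore holds no difference between lanes. Within pairs, the F test passed 9 of 9 members among Col-0, Ct-1, Bur-0 and Can-0 (13.7% of all tested genes), 7 among Ler-0, Kn-0, Edi-0 and Hi-0 (19.2%), and 2 among Po-0, Oy-0, Mt-0 and No-0 (3.99%). It passed 5 among Wil-2, Sf-2, Rsch-4 and Tsu-0 (6.61%) and 2 among Ws-0, Wu-0 and Zu-0 (3.78%). Without 1 library these counts came to 4 to 8, 4 to 5, 0 to 1, 2 to 5 and 0 to 1 in the same order. Leaving out either library of Ct-1, Edi-0, Kn-0, Sf-2 or Wil-2, or any library of the pairs with Mt-0 and with Ws-0, moved a count by over 1.5 times. For BCAT4, 58.9% of the variance lay between lane pairs and 39.8% between accessions within pairs. For the other 8 genes, 16.5% to 34.3% lay between pairs and 62.8% to 78.2% between accessions within them. Over all genes with a value in every library, the medians of these shares were 19.9% and 46.8%, with 28.8% between replicates. Mt-0, Oy-0 and Po-0, the 3 lowest in BCAT4, were on the same pair of lanes together with No-0, and for that group the lane and the accessions cannot be told apart. With the lane as a block all 9 members passed the F test, which then compared accessions within lane pairs only. Under this block 10 of 79 calls against Col-0 and 18 of 98 against the mean of the others were lost. A contrast that crosses lane pairs cannot be adjusted for the lane, because each accession was on a single pair. Its value under the block depends on which lane served as baseline.

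The members other than MAM3 were high and low in much the same accessions, MAM1 less closely than the rest. Over the 19 accession means of log2(RPKM + 1), the 28 pairs of genes without MAM3 had a Pearson r of 0.50 to 0.87, with a median of 0.75. The highest r was that of IPMI LSU1 with IPMI SSU3. The lowest were those of MAM1 with BAT5, BCAT4, IPMI SSU2, IPMI LSU1 and IPMI SSU3, at 0.50 to 0.54. With IPMDH1 and BCAT3, MAM1 had an r of 0.65 and 0.72. The 8 pairs with MAM3 had an r of -0.21 to 0.38, with a median of 0.24, and the lowest of them was MAM1 with MAM3. The points of each pair share their libraries and depth, so r is given as a description. Without Can-0 and Sf-2, left out after their levels were seen, the 28 pairs had an r of 0.39 to 0.83. After lane pair means were taken out, they had an r of 0.49 to 0.87. Differences between the 2 libraries of an accession gave an r of -0.24 to 0.87 over all 36 pairs, those with MAM3 included, with a median of 0.27. The highest of these was MAM1 with IPMI SSU2, at 0.87, against 0.51 over accession means.

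Genes that take over the elongated methionine were measured for comparison. All 11 genes of the aliphatic core pathway passed the F test, which 55.3% of all tested genes passed. CYP79F1, the cytochrome P450 that takes in elongated methionine derivatives, ran from 35.5 RPKM in Mt-0 to 232 ± 17.0 in Can-0. Its r with the 8 members other than MAM3 was 0.70 to 0.88, and with MAM3 it was 0.10. CYP79F2, known for long chains, ran from 3.25 RPKM in Ct-1 to 15.5 ± 2.099 in Wu-0, with an r of 0.12 to 0.51 with those 8 members and 0.39 with MAM3. GSTU20, a glutathione transferase, spanned 1.80 on the log2 scale from Mt-0 to Can-0, and GSTF11, of the same enzyme class, spanned 1.35 from Po-0 to Can-0.

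Genes outside the aliphatic branch were measured as well. The 4 genes of the indole branch all passed the F test, but their r with the 8 members lay between -0.53 and 0.04. Of the leucine branch and close paralogs, 8 of 14 tested passed, near the share of all tested genes that did, 55.3%. Those with the widest range were BCAT6 (1.35 on the log2 scale), IPMS2 (1.06), BCAT1 (1.01) and BASS4 (0.89), and BCAT7 was too low to be tested. The r of the 14 tested genes with the 8 members was -0.63 to 0.54, with a median of 0.10. For BASS4 it was -0.63 to -0.39. All 5 genes of methionine supply passed, led by MS2, a methionine synthase, with 116 RPKM in Rsch-4 and 299.7 ± 11.9 in Can-0, and CBL, the cystathionine lyase, with 30.4 RPKM in Wil-2 and 61.7 ± 6.27 in Can-0. The median r of this list with the 8 members was 0.56, against 0.66 for the aliphatic core list. MS2 alone had an r of 0.61 to 0.80, with a median of 0.72. That median was below those of the core genes CYP79F1, SOT17, SUR1 and GSTU20 (0.74 to 0.83) and above those of the other core genes. No test of these differences was run.

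The transcription factors MYB28, MYB29 and MYB76 are known to act on the aliphatic pathway. All 3 passed the F test, which 55.3% of all tested genes passed. MYB28 was at 90.003 and 85.9 RPKM in Oy-0, its highest accession, where BCAT4 was at its lowest, and its r with the 8 members was -0.42 to 0.04. With MAM3 its r was 0.42. MYB29 was listed at 0 in both Mt-0 libraries and stood at 58.3 and 53.7 RPKM in Sf-2. These accessions had the lowest and the highest summed level of the 9 genes. Next below Sf-2 in MYB29 were Oy-0 (46.8 ± 6.40 RPKM), Bur-0 (42.0 ± 5.19) and No-0 (38.8 ± 8.34). Their summed levels of the 9 genes were 1035, 1747 and 923 RPKM. Over all accessions the r of MYB29 with the 8 members was 0.43 to 0.63, and without Mt-0 it was 0.29 to 0.61. MYB76 ran from 0.925 and 0.820 RPKM in Mt-0 to 12.8 and 11.4 in Can-0, with an r of 0.54 to 0.85. After lane pair means were taken out, the r of MYB28 ran from -0.08 to 0.31, so its sign turned for part of the genes.

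**Figure D4:**
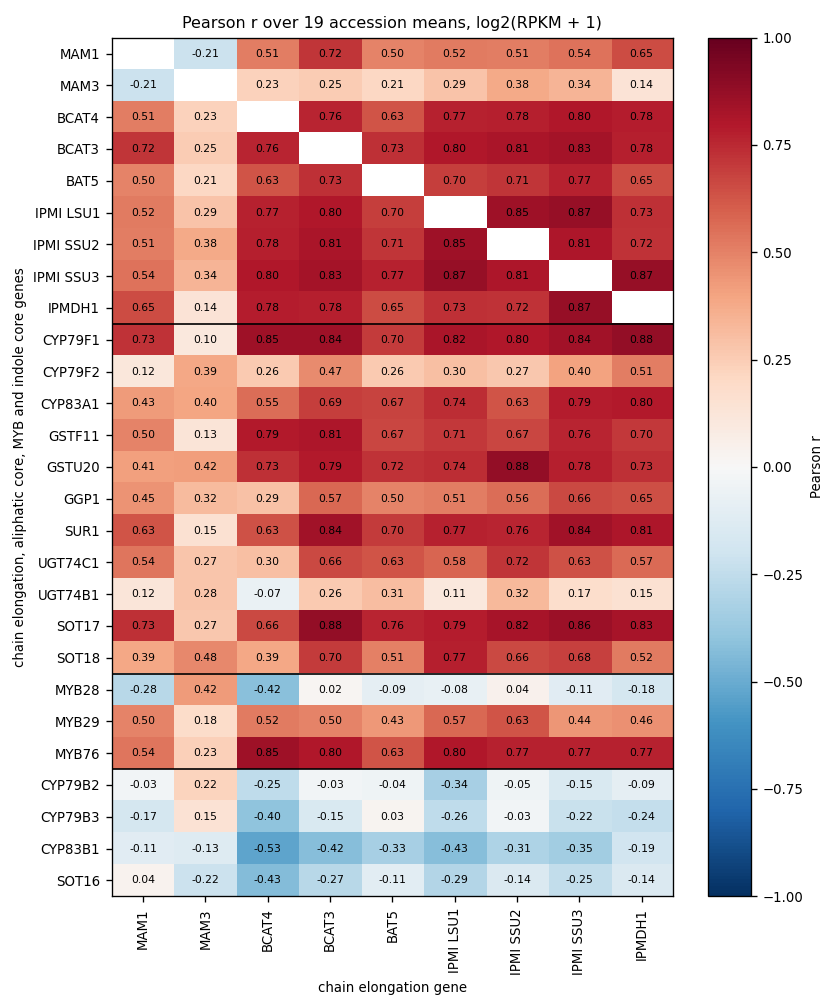
Pearson r over 19 accession means of log2(RPKM + 1) between each chain elongation gene (columns) and, in blocks from the top, the 9 members, 11 aliphatic core genes, 3 MYB regulators and 4 indole core genes (rows). The MAM3 column is pale throughout, with r from -0.22 to 0.48, while CYP79F1, SOT17 and MYB76 are dark for the other 8 genes.

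Among 20461 genes and with the 9 members themselves left out, those whose accession means were most like a member included several of glucosinolate synthesis. For BCAT4 they were GAMMA-H2AX, a histone gene (r = 0.85), CYP79F1 (0.85) and MYB76 (0.85). For BCAT3 they were SOT17, a sulfotransferase of the pathway (0.88), CYP79F1 (0.84) and SUR1, the carbon-sulfur lyase (0.84). Outside the members, IPMDH1 was most like CYP79F1 (0.88), AK3, an aspartate kinase (0.86), and AT5G22120 (0.83). IPMI SSU2 was most like GSTU20 (0.88), CB5-C, a cytochrome b5 (0.84), and CUE1, a phosphoenolpyruvate transporter of the plastid (0.83). IPMI SSU3 was most like SOT17 (0.86), CB5-C (0.85) and SUR1 (0.84).

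The remaining members had other neighbours. IPMI LSU1 was most like CB5-C (r = 0.86), AT2G16800 (0.84) and CUE1 (0.82), and BAT5 was most like CUE1 (0.85), SOT17 (0.76) and AKN2, an adenylylsulfate kinase (0.75). MAM1 was most like AT3G47840 (0.78), ML4 (0.77) and PLDALPHA1 (0.77), and MAM3 like MTR4 (0.77), iqd2 (0.74) and AT3G02030 (0.74). With members counted too, IPMI SSU3 ranked first for IPMI LSU1 and IPMI LSU1 first for IPMI SSU3, at an r of 0.87. The genes named here had the 3 highest values outside the members over 19 means, and none of the listed pathway genes was among the 3 for MAM1 or for MAM3.

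Promoters were read in TAIR10.1 because members moved together. In the 250 bases before each of 27443 gene starts, the AC element ACCTACC was searched on both strands, along with the variant ACCAACC, the variant ACCTAAC and the variant ACCAAAC. Such elements are known as binding motifs of MYB proteins. Any of them occurred in 13.7% of all promoters and in 4 members, BAT5, IPMI LSU1, IPMI SSU2 and IPMI SSU3. The G-box CACGTG, which reads the same on both strands, occurred in 6.49% of promoters and in 1 member, IPMI LSU1. The 150 bases next to the start of those 4 members are shown, 5′ to 3′ on the gene's strand, with the motifs in capitals.
BAT5, chr4:7210657-7210806, plus strand: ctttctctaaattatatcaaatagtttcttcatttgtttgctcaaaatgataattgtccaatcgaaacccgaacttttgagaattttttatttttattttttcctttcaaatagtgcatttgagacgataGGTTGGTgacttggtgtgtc
IPMI LSU1, chr4:7807985-7808134, minus strand: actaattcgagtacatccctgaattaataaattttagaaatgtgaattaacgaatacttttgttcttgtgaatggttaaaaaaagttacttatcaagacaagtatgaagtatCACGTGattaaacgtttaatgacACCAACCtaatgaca
IPMI SSU2, chr2:17920497-17920646, plus strand: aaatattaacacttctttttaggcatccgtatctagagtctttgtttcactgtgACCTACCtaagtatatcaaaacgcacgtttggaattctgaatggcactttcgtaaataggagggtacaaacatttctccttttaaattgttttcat
IPMI SSU3, chr3:21798304-21798453, minus strand: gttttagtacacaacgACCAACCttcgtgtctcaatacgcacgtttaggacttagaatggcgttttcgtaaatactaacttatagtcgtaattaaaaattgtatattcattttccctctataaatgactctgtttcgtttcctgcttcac
BAT5 holds its AC element on the other strand, and IPMI LSU1 holds both motifs. The small subunit promoters had a stretch of 60 bases in which 46 were identical without a gap (76.7%), beginning 98 bases before the start in IPMI SSU2 and 136 in IPMI SSU3. It was compared after the sequences had been seen, and the coding sequences of the 2 genes were 71.8% identical. MAM1, MAM3, BCAT4, BCAT3 and IPMDH1 held none of these letters in their 250 bases. A match is a description of these letters in the Col-0 reference, and the promoters of the other accessions were not read.

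Markers of tissue and of time of day differed between accessions too, and their part in the results was not tested. In these bulk samples, fewer cells of a type and less RNA per cell cannot be told apart. Green tissue markers summed to 19466 to 32036 RPKM and root markers to 87.4 to 458 RPKM per library, with the root hair genes RHD6 and EXP7 under 1 RPKM in all. Vasculature markers summed to 214 to 325 RPKM, flower markers to 0 to 2.76 and seed markers to 0 to 6.65. The F test, which 55.3% of all tested genes passed, passed 3 of 4 green tissue markers and 1 of 3 tested root markers. It passed 5 of 5 vasculature markers, 2 of 2 tested flower markers and 1 of 2 tested seed markers. The r of the 8 members other than MAM3 with single root markers was -0.06 to 0.52, and with single green tissue markers -0.44 to 0.31. With single vasculature markers it was -0.54 to 0.31, with flower markers -0.58 to 0.20 and with seed markers -0.33 to 0.05. All 5 clock genes passed the F test, and their r with those 8 members ran from -0.56 for LHY to 0.56 for GI. Mt-0, lowest in summed member level, had the highest CCA1 (37.2 RPKM) and the lowest GI (14.8) and FKF1 (0.76). LHY was highest in Kn-0 and TOC1 lowest in Ler-0. Sf-2, highest in summed member level, had the highest root markers PYK10 (435 RPKM) and CASP1 (2.50), while SHR was highest in Ler-0. Whether these go with the member levels was not tested. In No-0 the libraries differed in clock genes, with FKF1 at 4.85 and 67.4 RPKM. In the same libraries BCAT4 was at 134 and 120.1 RPKM and MAM1 at 132 and 129.5. BAT5 was at 27.7 and 19 RPKM, MAM3 at 29.1 and 37.4, and IPMDH1 at 55.9 and 42.5. BCAT3 was at 105 and 122 RPKM and IPMI LSU1 at 188 and 178. IPMI SSU2 was at 197 and 201 RPKM and IPMI SSU3 at 66.3 and 61.8. Whether the members follow the clock genes in No-0 was not tested.

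The 4 technical Col-0 libraries came from another table of features and are set beside the others as values. They were sequenced on lane 7 of run 35, and the biological Col-0 libraries on lanes 1 and 2 of run 38. MAM1 was at 158 ± 11.4 RPKM (n = 4) there and at 264 ± 51.9 (n = 2) in the biological libraries. MAM3 was at 3.57 ± 1.02 RPKM in the technical libraries and at 15.8 ± 3.33 in the biological ones, a ratio of 4.43, where the median ratio of 16412 genes was 1.10. IPMDH1 had a ratio of 1.06 and IPMI SSU2 one of 2.45.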

How the data were processed

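The authors deposited RPKM per gene, a unit that, per the file headers, scales reads to exon model length and to the library's mapped reads. In the 38 biological files the deposited column was handled as a score, because it also holds the code -1, read here as no value. The submitters' processing notes name TAIR9 and TAIR10. Neither aligner nor counter is named in the sources used here. The members, gene lists and tests were chosen with earlier results of these data known. Members were taken by locus. The named genes were all 9 members, of each list the untested genes and up to 4 that passed the F test and ranged widest, 3 MYB genes and, for each member, the 3 genes outside the members with the highest r.

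Genes entered when 2 or more of 38 libraries reached 1 RPKM, as log2(RPKM + 1), a scale that understates changes of low genes. A mean per accession was fitted without a block, with empirical Bayes moderation from limma 3.58.1 (R 4.3.3), a trend over the mean level and a prior of 4.63 degrees of freedom; the code was tested on simulated data. Missing values were left out gene by gene. F tests and contrasts used Benjamini-Hochberg adjustment over all genes tested, per contrast, with a threshold of 0.05. Reads per library and gene were estimated from the steps of low values, and 3 reads on 1500 bases were worth 0.406 to 1.61 RPKM, a floor that covers counting error only. Alternatives were another pseudocount, filter, scaling, trend and block, and leaving out libraries. Libraries overlap when the ranges of their 2 values do. Sequences came from the RefSeq TAIR10.1 assembly.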

Additional observations from a re-analysis of the deposited data

How the results depend on the processing

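All 9 members passed the F test over 19 accessions in every alternative, including each fit without 1 library. With the lane as a block, this test compared accessions within lane pairs only. No call of a member reversed its direction. Against Col-0, counts without 1 library were 45 to 59 higher and 14 to 24 lower, and against the mean of the others 43 to 50 higher and 42 to 54 lower. Of 79 calls against Col-0, 51 held under all alternatives, and of 98 against the mean of the others, 48 did. The number of all genes past the F test was 10769 to 11888 without 1 library and 8257 with the lane as a block. The lane block lost 10 calls against Col-0 and 18 against the mean of the others. It cannot adjust contrasts between lane pairs for the lane. The 51 and 48 calls that held under all alternatives were therefore not all tested against the lane.

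The counts within lane pairs, which rest on 6 or 8 libraries, moved most, and the cause was not tested. Without a filter on low values, 4 members passed in the second pair, 1 in the third and 0 in the fifth; without a trend, 1 passed in the third and 0 in the fifth. Without both No-0 libraries, 1 passed in the third. Leaving out 1 library gave 4 to 8 in the first pair, 4 to 5 in the second, 0 to 1 in the third, 2 to 5 in the fourth and 0 to 1 in the fifth. The lane block was not run within pairs. Replicate numbers did not pair the samples: over 171 pairs of accessions the correlation of replicate differences was -0.14 to 0.13, with 2 pairs over 0.1. With the replicate block, 58 higher and 19 lower calls against Col-0 were counted, 0 members passed in the third lane pair and 0 in the fifth. Depth was lowest in Ws-0 replicate 2, and RPKM outside Col-0 also rests on the alignment of reads with variants, which the files do not show.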
